A study of Mus musculus with 4 samples.

Results

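The 10 genes described here encode subunits of the ionotropic glutamate receptors: *Gria1*, *Gria2*, *Gria3* and *Gria4* of the AMPA receptors, *Grin1*, *Grin2b* and *Grin3a* of the NMDA receptors, and *Grik1*, *Grik2* and *Grik5* of the kainate receptors. They were chosen by symbol from the 23038 genes that were quantified, and 37 of the 38240 alternative splicing events belong to 9 of them. Polyadenylated RNA was sequenced from the cortex of mouse embryos at E14.5 (embryonic day) in 2 control and 2 *Qk* cKO samples. By the study's text all embryos carried the floxed *Qk* alleles (*Qk fl/fl*), and the *Qk* cKO littermates also carried *Nestin*-Cre, whereas the control samples are labelled wild type. *Nestin*-Cre acts in neural progenitor cells and is inherited by their progeny, so blood, vessel and meningeal cells of the tissue keep *Qk*. *Qk* encodes Quaking, a family of RNA-binding proteins (Qki5, Qki6 and Qki7) of which Qki5 acts on pre-mRNA splicing, and the comparison asks what its loss does to transcript levels and splicing. The labels do not say whether a sample is 1 embryo.

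AMPA receptors are tetramers of GluA subunits, the proteins of the *Gria* genes, and carry most fast excitatory transmission in the brain. Each GluA subunit exists in a flip and a flop form, made by a choice between neighbouring exons that encode part of the ligand-binding domain, and the choice alters how fast the channel desensitizes. In the rodent brain the flip forms are known to prevail before birth. NMDA receptors need the *Grin1* product together with other subunits, and kainate receptors combine low-affinity subunits such as those of *Grik1* and *Grik2* with the high-affinity subunit of *Grik5*.

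The flop and flip exons carry most of the splicing results, so the pairs of *Gria1* and *Gria2* are printed here with the 41-nt exon that lies before the pair in *Gria2*. Each flop or flip exon is 115 nt long, and in all 4 *Gria* genes the flop exon comes first in the direction of transcription. In the flop and flip exons, capitals mark the bases that differ between the exons of a pair, which are 36 in *Gria1*, 36 in *Gria2*, 32 in *Gria3* and 31 in *Gria4*. Of the 115 positions, 16 hold 1 base in all 4 flop exons and another base in all 4 flip exons, and 69 are the same in all 8 exons. The positions are those of GENCODE M21 on GRCm38, the build called mm10 in the submitters' processing notes, and the sequences are those of its transcripts, written in the direction of transcription. *Gria1* lies on the plus strand of chromosome 11, with flop at chr11:57309769-57309883 and flip at chr11:57310608-57310722.
Gria1 flop: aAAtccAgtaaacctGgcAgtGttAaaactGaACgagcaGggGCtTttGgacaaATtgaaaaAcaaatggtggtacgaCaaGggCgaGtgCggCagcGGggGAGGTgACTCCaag
Gria1 flip: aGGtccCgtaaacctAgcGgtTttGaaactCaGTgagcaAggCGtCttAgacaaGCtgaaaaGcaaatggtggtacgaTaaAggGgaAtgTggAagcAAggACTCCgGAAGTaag
*Gria2* lies on the minus strand of chromosome 3, with the 41-nt exon at chr3:80691703-80691743, flop at chr3:80691320-80691434 and flip at chr3:80690404-80690518.
Gria2 41-nt exon: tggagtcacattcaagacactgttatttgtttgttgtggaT
Gria2 flop: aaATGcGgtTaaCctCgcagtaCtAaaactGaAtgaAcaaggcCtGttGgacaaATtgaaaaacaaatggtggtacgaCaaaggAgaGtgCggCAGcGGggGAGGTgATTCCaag
Gria2 flip: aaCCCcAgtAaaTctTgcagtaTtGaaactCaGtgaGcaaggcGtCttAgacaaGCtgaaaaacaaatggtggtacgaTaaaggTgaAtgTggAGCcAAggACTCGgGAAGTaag
The capital that ends the 41-nt exon is the first base of the stop codon that the annotation gives to its annotated transcript, and the other 2 bases of that codon are the first of the flop exon. In this transcript the 41-nt exon is exon 14 of 18 and is followed by both flop and flip, and its annotated class is nonsense-mediated decay, the pathway that degrades mRNA with a premature stop codon. The flop exon alone, at 115 nt, is 1 base over a whole number of codons. The 41-nt and flop exons together span 156 nt, 0 bases over, and flop and flip together span 230 nt, 2 bases over. Both combinations thus differ in frame from flop alone. Neither is the full set of the annotated transcript, which holds the 41-nt, flop and flip exons.

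The libraries held 37942046 to 42994832 tags on genes, the tag being the unit that the quantification counts, which need not be whole. Loss of *Qk* exon 2 was read from the junction of exons 2 and 3, which held 63 and 68 tags in *Qk* cKO against 635 and 565 in control. The neuronal markers *Tubb3*, *Dcx*, *Neurod2*, *Neurod6* and *Stmn2* had a summed RPKM of 1187 and 1224 in control against 1176 and 1100 in *Qk* cKO. Both *Qk* cKO sums were below both controls. The radial glia markers had 626 and 593 in control against 611 and 585 in *Qk* cKO, and no gene of either list was called. A hypothalamic list had a summed RPKM of 11.1 and 16.9 in control and of 8.45 and 7.81 in *Qk* cKO, and 4 of its 7 genes were called lower. In both groups replicate 1 had *Xist* above 57 RPKM and replicate 2 had the Y-linked *Eif2s3y* above 29 RPKM, so the replicate number goes with sex. The part of these differences in the results below was not tested. In bulk tissue, fewer cells of a type and less RNA per cell cannot be told apart. The p-values of transcript levels measure the spread between these samples only. Those of Fisher's exact test, which was run for splicing on tags summed over the replicates, do not cover that spread.

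None of the 10 subunit genes was called changed in transcript level in *Qk* cKO. A gene was called changed at p below 0.01 and a Benjamini-Hochberg adjusted p (FDR) below 0.1 in edgeR's quasi-likelihood test, a rule that 110 of 18834 genes met (0.584%). Of the members 0 of 10 were called, and 0 had an unadjusted p below 0.05, which 8.76% of all genes had. The exact test of edgeR and DESeq2 also called 0 of 10. The fitted log2 fold change was above 0 in 6 members and below 0 in 4, with a median of 0.037 against -0.0025 over all genes tested. The 95% intervals of the 10 members lay within -0.29 and 0.39 on the log2 scale, that is, between 0.815-fold and 1.31-fold of control. Levels below are in RPKM, reads per kilobase of exon scaled to the library, so a comparison between genes also depends on the exon length used for each.

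**Figure D1:**
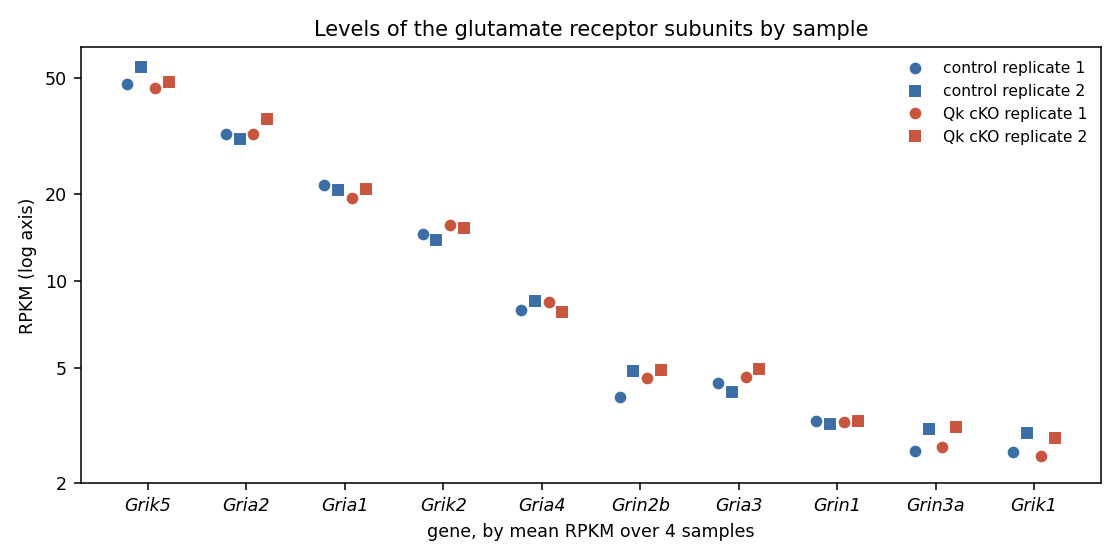
RPKM on a log axis for each of the 10 subunit genes (x axis, by mean level) in the 4 samples, control in blue and *Qk* cKO in red, circles for replicate 1 and squares for replicate 2. The genes spread from about 2.5 to 55 RPKM, and the samples of the groups lie apart only for *Grik2* and *Gria3*.

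Among the AMPA receptor genes *Gria2* had the highest level. Its product lowers the calcium permeability of the receptor, since its mRNA is edited at the Q/R site. *Gria2* was at 32.2 and 30.8 RPKM in control against 32.1 and 36.1 RPKM in *Qk* cKO, so that *Qk* cKO replicate 1 lay between the controls. The log2 fold change of *Gria2* was 0.13 ± 0.075 (SE; adjusted p = 0.69). *Gria1*, whose product is delivered to synapses in long-term potentiation, was at 21.4 and 20.5 RPKM in control against 19.3 and 20.7 RPKM in *Qk* cKO, again overlapping. Its log2 fold change was -0.053 ± 0.056 (SE; adjusted p = 0.86). *Gria4*, a subunit known for its early expression, was at 7.95 and 8.50 RPKM in control against 8.46 and 7.78 RPKM in *Qk* cKO. The difference of *Gria4* was the smallest of the 10, with a log2 fold change of -0.0040 ± 0.094 (SE).

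*Gria3*, the X-linked member, was at 4.45 and 4.13 RPKM in control against 4.66 and 4.95 RPKM in *Qk* cKO. Both *Qk* cKO samples were above both controls, and the log2 fold change of 0.18 ± 0.10 (SE) did not pass the test (adjusted p = 0.69). The composition of the family was similar in the 4 samples: *Gria2* took 48.1% to 51.9% of the summed AMPA receptor RPKM, *Gria1* 29.8% to 32.4%, *Gria4* 11.2% to 13.3% and *Gria3* 6.46% to 7.22%. The sum over the 4 genes was 66.0 and 63.9 RPKM in control against 64.6 and 69.6 RPKM in *Qk* cKO.

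The 3 kainate receptor genes among the members reached a similar sum, with 65.1 and 71.6 RPKM in control against 64.4 and 66.5 RPKM in *Qk* cKO. Most of this sum came from *Grik5*, which encodes the high-affinity subunit GluK5 and took 71.8% to 76.5% of it. Kainate subunit genes that are not members, such as *Grik4*, are left out of the sum. *Grik5* was at 48.0 and 54.8 RPKM in control against 46.3 and 48.4 RPKM in *Qk* cKO, with a log2 fold change of -0.10 ± 0.060 (SE; adjusted p = 0.69). Its highest sample was control replicate 2, and the groups overlapped. *Grik2*, which encodes GluK2, was at 14.6 and 13.9 RPKM in control against 15.6 and 15.2 RPKM in *Qk* cKO. The groups did not overlap, as in *Gria3*, and *Grik2* had the smallest p of the members (adjusted p = 0.61) with a log2 fold change of 0.13 ± 0.066 (SE). These 2 of 10 members without overlap compare with 36.9% of all genes tested. *Grik1*, which encodes GluK1, was the lowest member, at 2.57 and 2.99 RPKM in control against 2.49 and 2.86 RPKM in *Qk* cKO (log2 fold change -0.045 ± 0.12, SE).

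The 3 NMDA receptor genes among the members were low, with sums of 9.86 and 11.1 RPKM in control against 10.5 and 11.3 RPKM in *Qk* cKO. NMDA subunit genes that are not members are left out of these sums. *Grin2b*, the GluN2 subunit that prevails in the embryonic forebrain, was at 3.98 and 4.87 RPKM in control against 4.60 and 4.92 RPKM in *Qk* cKO. *Grin1*, the obligatory subunit, had the narrowest spread, at 3.28 and 3.20 RPKM in control against 3.26 and 3.28 RPKM in *Qk* cKO. *Grin3a*, whose product GluN3A lowers the calcium permeability of NMDA receptors, was at 2.59 and 3.07 RPKM in control against 2.68 and 3.12 RPKM in *Qk* cKO. The groups overlapped in all 3 genes, with log2 fold changes of 0.12 ± 0.11 (SE) for *Grin2b*, 0.025 ± 0.11 for *Grin1* and 0.049 ± 0.13 for *Grin3a*.

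By mean RPKM over the 4 samples the order was *Grik5*, *Gria2*, *Gria1*, *Grik2*, *Gria4*, *Grin2b*, *Gria3*, *Grin1*, *Grin3a* and *Grik1*. The ranges of neighbours over the samples overlapped between *Grin2b* and *Gria3* and between *Grin3a* and *Grik1*, and those of all other neighbours did not. These ranges do not cover the exon length by which RPKM divides, 3863 nt for *Grik5* and 10461 nt for *Gria2*. Before that division *Gria2* held more tags than *Grik5* in every sample, for example 13947 against 7675 in control replicate 1.

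**Figure D2:**
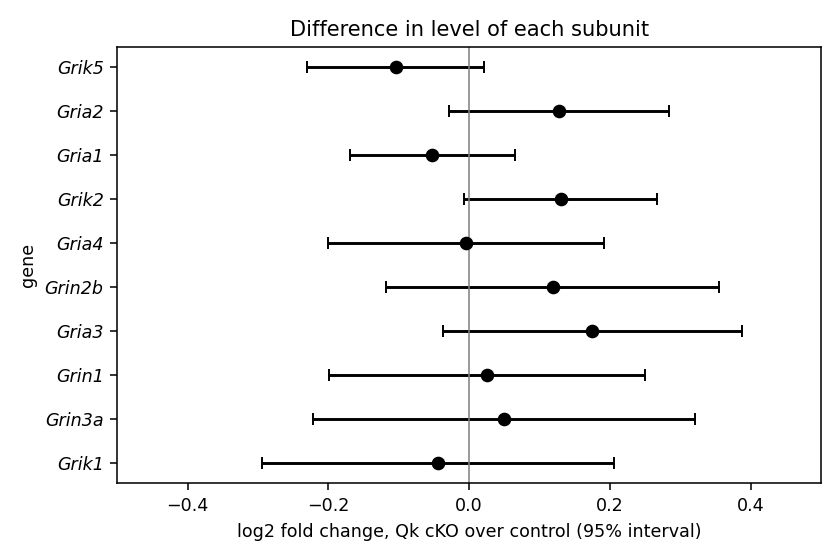
Log2 fold change of *Qk* cKO over control (x axis) for each subunit gene (y axis), with bars for the 95% interval from edgeR's quasi-likelihood fit. All 10 intervals include 0, and they lie within -0.29 and 0.39.

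Splicing of the subunits was called changed in 1 place, the 41-nt exon of *Gria2*. Inclusion, the share of an exon or splice site in the junction tags of an event, was compared by Fisher's two-sided test (exact) of isoform tags, summed over the replicates. An event was tested at a coverage of at least 20 junction tags, and called at p below 0.01 and FDR below 0.1 within its type. Coverage was the smallest of the sums of junction tags in each group and for each of the compared isoforms. Low coverage can therefore mean a rare isoform rather than few tags: the flop and flip event of *Gria3* had a coverage of 6.2 with 419 junction tags. Of the 37 events of the members 17 were tested, in 7 genes, and 1 was called, beside 862 of 11500 events over the whole table (7.50%). The 20 events that were not tested had a coverage of 0 to 14.1 tags, and they include all 9 events of *Gria3* and all 3 of *Grin2b*, while *Grin3a* had no event. The median absolute difference in inclusion was 0.0169 over the 17 tested events of the members and 0.0256 over all tested events. The groups did not overlap in 6 of the 17 events, against 37.9% of all tested events. A test that counts the variation between samples, edgeR's interaction of isoform and genotype, called 0 of the 17 (0.557% of all events), and 0 had an unadjusted p below 0.05 in it (7.17% of all events had).

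**Figure D3:**
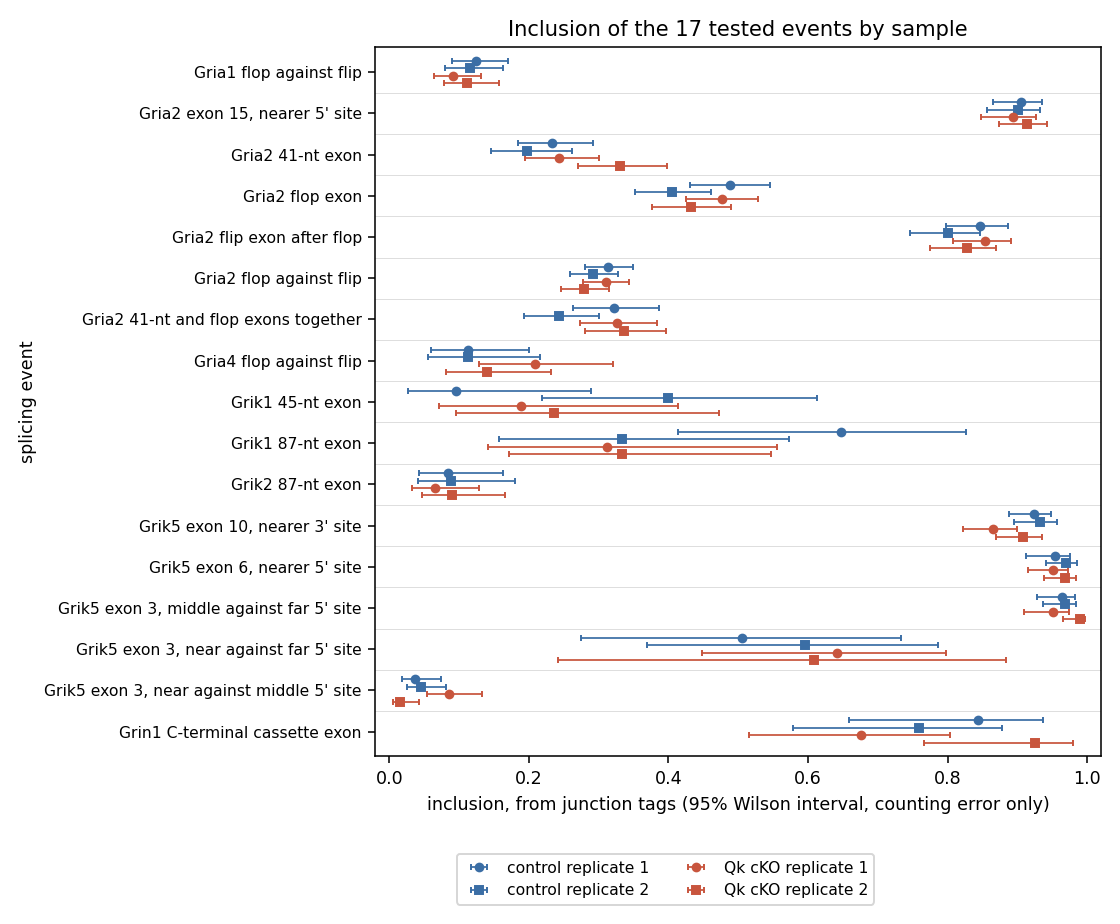
Inclusion (x axis) of the 17 tested events (y axis) in the 4 samples, with 95% Wilson intervals that cover counting error only. The 41-nt exon of *Gria2* lies between 0.197 and 0.331 with *Qk* cKO replicate 2 highest, and the widest intervals are those of the *Grik5* exon 3 pair of near and far sites, followed by the *Grik1* exons.

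The 41-nt exon of *Gria2* was included at 0.233 and 0.197 in control against 0.244 and 0.331 in *Qk* cKO. *Qk* cKO replicate 2 stood above the other 3 samples, and *Qk* cKO replicate 1 was close to control replicate 1. Over the summed tags it reached 0.218 in control against 0.283 in *Qk* cKO, a difference (control minus *Qk* cKO) of -0.065 with a 95% interval of -0.12 to -0.0071 that covers counting error only (Fisher's exact test, p = 0.0031, FDR = 0.048). The call was lost in edgeR's interaction test (p = 0.085, FDR = 0.63), without *Qk* cKO replicate 2 (difference -0.026, Fisher's exact test FDR = 0.66) and without control replicate 2 (difference -0.049, FDR = 0.26). Without control replicate 1 the difference was -0.085 and without *Qk* cKO replicate 1 it was -0.11.

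The exon is flanked by introns of 541 nt and 268 nt. The junction from the previous exon into the 41-nt exon held 69.6 and 52.2 tags in control against 72.1 and 73.0 tags in *Qk* cKO. Both *Qk* cKO samples were above both controls in these tags. As a share of all tags that leave the previous exon this junction gave 17.5% and 13.7% in control against 16.1% and 19.5% in *Qk* cKO. In this share the groups overlapped. The junction from the 41-nt exon to flop, given in tags only, held 40.0 and 19.2 in control against 51.1 and 61.0 in *Qk* cKO. Here too both *Qk* cKO samples were above both controls. The event that takes the 41-nt and flop exons together against direct joining to flip was included at 0.322 and 0.243 in control against 0.326 and 0.336 in *Qk* cKO (difference -0.051, p = 0.30, Fisher's exact test of isoform tags). On junction tags only, which give this difference, Fisher's exact test gave p = 0.022 and FDR = 0.17, again not called. The 6 tested events of *Gria2* share junctions and are not independent of each other.

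Over both junctions of each exon, flip held more tags than flop in all 4 *Gria* genes and in every sample, and the flop share was not called changed in any of them. In *Gria1* flop took 0.125 and 0.115 of the tags on the junctions of flop and flip in control against 0.0917 and 0.112 in *Qk* cKO (difference 0.019, 95% interval -0.019 to 0.058, p = 0.27, Fisher's exact test). In *Gria2* it took 0.314 and 0.292 in control against 0.310 and 0.279 in *Qk* cKO (difference 0.0074, 95% interval -0.027 to 0.042, p = 0.66, Fisher's exact test). *Gria2* was thus the gene with the largest share of flop by this measure, with overlapping groups. In *Gria4* the share was 0.113 and 0.113 in control against 0.209 and 0.1402 in *Qk* cKO, at a coverage of 41.5 tags (difference -0.059, 95% interval -0.14 to 0.023, p = 1, Fisher's exact test). Both *Qk* cKO samples of *Gria4* were above both controls on the junctions, while the isoform tags that enter the test held 19 and 18 flop tags for control, and 20 and 21.3 for *Qk* cKO. In *Gria3* flop was nearly absent, with at most 1.09 tags on any of its junctions to the neighbouring constitutive exons in any sample, against 41 to 64 for flip, and the event was below the coverage minimum.

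The 2 junctions of the flop exon gave different shares in *Gria2*, a pattern noticed after the values were seen and given as a description with no test. Of the tags that enter flop or flip from the previous exon, flop took 55.0% and 44.1% in control against 51.0% and 45.02% in *Qk* cKO. Of those that leave flop or flip for the next exon, flop took 10.5% and 14.54% in control against 10.9% and 12.7% in *Qk* cKO. Summed over the control samples these shares were 49.5% (95% Wilson interval 45.7% to 53.4%) and 12.4% (10.2% to 15.1%). By the leaving junction the share in *Gria2* was close to that in *Gria1*, where it was 8.95% in control (5.66% to 13.9%) and 9.33% in *Qk* cKO (6.07% to 14.1%). In *Gria4* the leaving junction gave 6.78% in control (2.67% to 16.2%) and 10.2% in *Qk* cKO (5.29% to 18.8%), and the entering junction 14.46% and 25.2%.

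**Figure D4:**
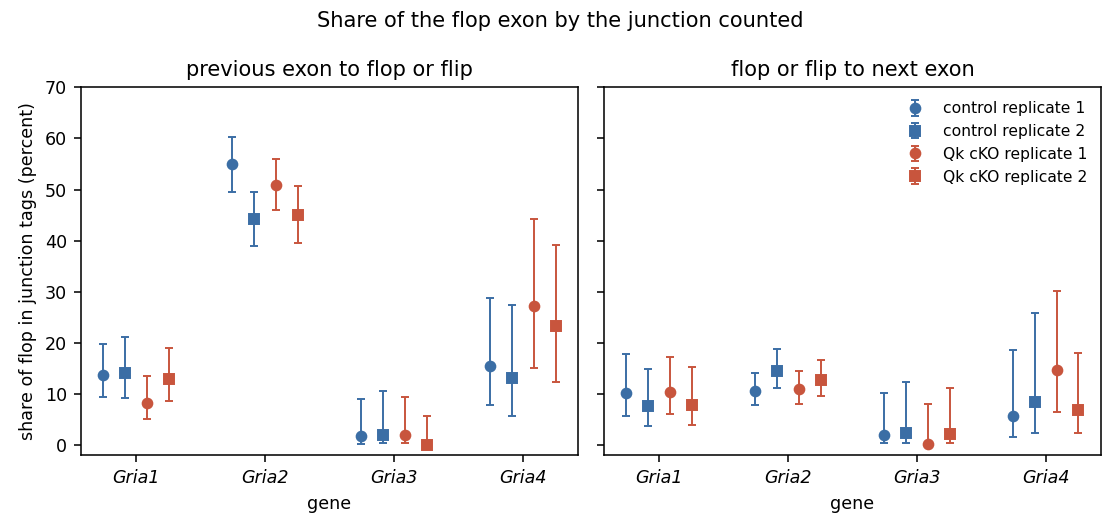
Share of flop in percent (y axis) for the 4 *Gria* genes (x axis), from the junctions that enter the pair (left) and those that leave it (right), by sample with 95% Wilson intervals that cover counting error only. In *Gria2* the share falls from 44.1% to 55.0% on the left to 10.5% to 14.54% on the right, and *Gria3* stays near 0 on both.

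The deposited junctions of *Gria2* include one from flop to flip. It held 100 and 105 tags in control against 143 and 117 tags in *Qk* cKO. The junction from flop to the next exon held 39 and 48.7 tags in control against 40.6 and 43.1 tags in *Qk* cKO. Of the tags that leave flop, 72.0% and 68.3% in control against 77.9% and 73.0% in *Qk* cKO thus went to flip. As a share of the tags that enter flip, the flop junction gave 40.5% and 36.4% in control against 43.8% and 41.4% in *Qk* cKO. Both *Qk* cKO samples were above both controls in each share. These shares count the same flop to flip tags and were not tested, and the groups did not overlap in 37.9% of all tested events. The tested cassette event on flip after flop, which rests on the same junctions, was included at 0.847 and 0.801 in control against 0.854 and 0.827 in *Qk* cKO (difference -0.017, 95% interval -0.063 to 0.029, p = 0.48, Fisher's exact test). In that event the groups overlapped. In *Gria3* the junction from flop to flip held at most 1.10 tags in any sample.

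**Figure D5:**
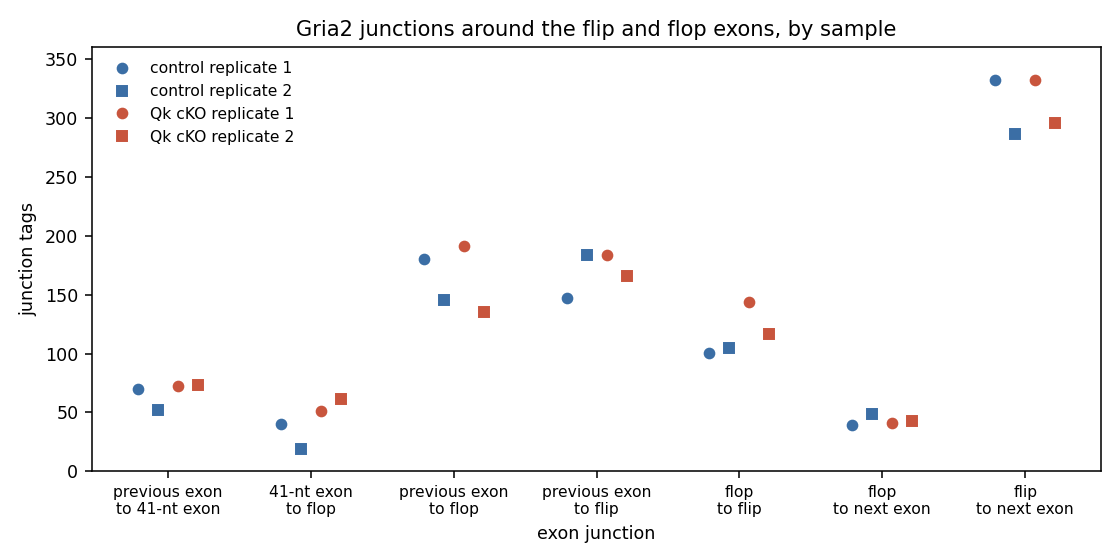
Tags (y axis) on 7 exon junctions of *Gria2* around the flop and flip exons (x axis) in the 4 samples. The junction from flop to flip (100 to 143 tags) lies above that from flop to the next exon (39 to 48.7 tags) in every sample, and the junction from flip to the next exon is the highest at 286 to 332 tags.

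The flop exon of *Gria2*, taken as a cassette exon before flip, was included at 0.487 and 0.405 in control against 0.476 and 0.433 in *Qk* cKO (difference -0.012, p = 0.69, Fisher's exact test). The last tested event of *Gria2* uses alternative 5′ splice sites 114 nt apart at the end of exon 15, which follows the pair. The site nearer to the next exon was used at 0.905 and 0.901 in control against 0.894 and 0.914 in *Qk* cKO (difference -0.00088, p = 0.68, Fisher's exact test), with overlapping groups.

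In the kainate receptor genes among the members, 8 events were tested and 0 were called. *Grik1* has a 45-nt exon (chr16:87955289-87955333, minus strand) that was included at 0.0952 and 0.40 in control against 0.189 and 0.235 in *Qk* cKO. The controls spanned the *Qk* cKO samples, at a coverage of 35.0 tags, and the 95% interval of the difference was -0.16 to 0.21. An 87-nt exon near the 3′ end of *Grik1* (chr16:87896809-87896895) was included at 0.647 and 0.333 in control against 0.313 and 0.333 in *Qk* cKO. Control replicate 1 stood apart, and the difference of 0.17 had a 95% interval of -0.059 to 0.37 (p = 0.16, Fisher's exact test). In *Grik2* an exon of the same length (chr10:49104979-49105065, minus strand) near the 3′ end was used little, at 0.0844 and 0.0882 in control against 0.0656 and 0.0891 in *Qk* cKO (p = 1, Fisher's exact test).

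*Grik5* held 5 of the 17 tested events, all between closely spaced splice sites. At exon 10, 2 alternative 3′ splice sites lie 4 nt apart, and the nearer site was used at 0.923 and 0.932 in control against 0.866 and 0.907 in *Qk* cKO. Both *Qk* cKO samples were below both controls, and the difference of 0.041 (95% interval 0.0073 to 0.074) did not pass the adjustment (Fisher's exact test p = 0.021, FDR = 0.19). The difference was 0.020 without *Qk* cKO replicate 1 (FDR = 0.75) and 0.062 without *Qk* cKO replicate 2 (FDR = 0.12). At exon 6, with 5′ splice sites 5 nt apart, the nearer site was used at 0.953 and 0.970 in control against 0.951 and 0.969 in *Qk* cKO. At exon 3 there were 3 such sites, and the middle site took 0.964 and 0.968 in control against 0.951 and 0.990 in *Qk* cKO of the tags that it shared with the site 20 nt upstream. The site 25 nt downstream of the middle site took 0.0371 and 0.0458 in control against 0.0849 and 0.0153 in *Qk* cKO against the middle site. Set against the far site it took 0.505 and 0.595 in control against 0.641 and 0.609 in *Qk* cKO. None of these exon 3 pairs, which share junctions, passed the test (Fisher's exact test p between 0.22 and 0.84).

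Of the NMDA receptor genes among the members only *Grin1* had a tested event. It is the C-terminal cassette exon of 111 nt (chr2:25294438-25294548, minus strand), which adds a stretch of basic residues to the tail of GluN1, and is printed with its runs of 3 or more codons for lysine or arginine in capitals.
Grin1 C-terminal cassette exon: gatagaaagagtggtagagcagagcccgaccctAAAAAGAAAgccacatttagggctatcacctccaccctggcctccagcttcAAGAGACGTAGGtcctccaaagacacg
Its share of inclusion was 0.843 and 0.759 in control against 0.676 and 0.926 in *Qk* cKO, at a coverage of 25.0 tags. The *Qk* cKO samples spanned the controls, and the difference of 0.017 had a 95% interval of -0.13 to 0.16 (p = 0.67, Fisher's exact test).

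Among 60 other genes of glutamate signalling, in 5 lists, 0 were called higher and 1 lower in *Qk* cKO. Of 16 other receptor subunits 0 were called in edgeR's quasi-likelihood test. Among them *Grik4*, the other high-affinity kainate subunit, was at 2.93 and 3.15 RPKM in control against 2.35 and 2.26 RPKM in *Qk* cKO, a log2 fold change of -0.38 ± 0.13 (SE; adjusted p = 0.32). Of 14 auxiliary subunits 0 were called, with the smallest p for *Cacng2* and *Shisa9*. *Cacng2*, which encodes stargazin, a trafficking subunit of AMPA receptors, was at 4.65 and 5.63 RPKM in control against 3.72 and 3.79 RPKM in *Qk* cKO (log2 fold change -0.44 ± 0.13, SE; adjusted p = 0.20). *Shisa9*, another AMPA receptor partner, was at 1.85 and 2.60 RPKM in control against 1.57 and 1.67 RPKM in *Qk* cKO (adjusted p = 0.32). In *Grik4*, *Cacng2* and *Shisa9*, which were named for a small p in their lists, the groups did not overlap, as in 36.9% of all genes tested. An unadjusted p below 0.05 was found in 13 of the 60 genes (8.76% of all genes), 4 of them in the list of receptor subunits and 4 in that of auxiliary subunits.

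Of 18 scaffold and trafficking proteins 0 were called by level, with the smallest p for *Dlg1* (20.4 and 21.2 RPKM in control, 21.9 and 25.0 RPKM in *Qk* cKO, adjusted p = 0.29) and *Dlgap3* (7.47 and 7.71 RPKM in control, 6.0 and 6.43 RPKM in *Qk* cKO, adjusted p = 0.41). Of 9 transporters and suppliers of glutamate 1 was called, *Slc1a3*, the glutamate transporter of radial glia and astrocytes. *Slc1a3* was at 18.5 and 18.4 RPKM in control and fell to 15.8 and 15.5 RPKM in *Qk* cKO, a log2 fold change of -0.23 ± 0.054 (SE; adjusted p = 0.089). Of the 3 genes of the ADAR family, known for RNA editing, 0 were called. Among them *Adarb1*, which edits the *Gria2* mRNA, was at 3.67 and 3.52 RPKM in control against 3.30 and 3.67 RPKM in *Qk* cKO. *Adarb2* had an adjusted p of 0.66 in edgeR's quasi-likelihood test.

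By splicing, 4 of 49 tested events of the 60 genes were called, a share near the 7.50% of all tested events. Of the 4, 3 are overlapping events of *Grip1* and 1 is in *Dlgap4*, both scaffold genes. *Grip1* encodes a PDZ protein that binds the C-terminal ends of GluA2 and GluA3, and its exon of 156 nt (chr10:119985474-119985629, plus strand) was included at 0.846 and 0.658 in control against 0.258 and 0.232 in *Qk* cKO. This event was also called in edgeR's interaction test (FDR = 0.025). The other 2 of *Grip1*, which share its splice sites, were not called in the interaction test (FDR = 0.105 and 0.68). *Dlgap4* used the nearer of its alternative 5′ splice sites at 0.8998 and 0.930 in control against 0.857 and 0.861 in *Qk* cKO (FDR = 0.0032 by Fisher's exact test, 0.90 in the interaction test).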

How the data were processed

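Paired reads were aligned by the authors to mm10 and exon junctions with OLego and quantified with Quantas, whose versions are not given in the sources used here. The deposited values are estimated counts of tags per gene, isoform and junction, and the deposited RPKM per gene. Tags that Quantas infers for paired ends, and exons alike in sequence such as flip and flop, therefore depend on that step. The sequencer is given differently by the labels and the methods, and so is the number of replicates (2 in the labels, used here).

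Tags were rounded and fitted over all genes with at least 1 tag with edgeR 4.0.16 (R 4.3.3, TMM scaling). Events were tested as described in the report, with difference intervals by Newcombe's method. Positions came from GENCODE M21. As alternatives, DESeq2 1.42.0, the exact test of edgeR, RLE scaling, filterByExpr, junction tags only, coverage of at least 10 or 50, adjustment over all types, the edgeR interaction test, the mean of the replicates' inclusion, a replicate block and each sample left out were used. The members and lists were chosen with earlier results of these data known. All members and their events with a coverage of at least 20 are named, and of the lists the called genes or the 2 with the smallest p, except 1 that is not reported here. On simulated data with 200 changed features, the quasi-likelihood test recovered 197 (21 false calls among 18604 genes), Fisher's test 170 (15 among 11500 events) and the interaction test 114 (11 among 11500). The events for Fisher's test were simulated without variation between samples, so its false calls do not cover that variation. Those for the interaction test had such variation, and only events with many tags were changed, so the counts of the tests cannot be compared. Same-numbered samples deviated together with a correlation of 0.17 over all genes and -0.080 over autosomal genes, so the numbers were not taken to pair the samples.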

Additional observations from a re-analysis of the deposited data

How the results depend on the processing

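With 2 samples per group and tags summed for Fisher's test, precision is limited by counting in the events of low coverage and by the spread between samples in all. The count of called member genes was 0 in all 9 alternatives, and their fold changes kept the direction in 83 of 90 recalculations. With the replicate block, whose numbers go with sex and were not taken as pairs, it was 0 as well (1 gene with an unadjusted p below 0.05), and over the whole table the calls went from 110 to 192. They were 57 in the exact test, 81 in DESeq2, 107 with RLE scaling, 11 with filterByExpr, and 0 to 428 with each sample left out, the highest without *Qk* cKO replicate 1. With each sample left out, the log2 fold change of *Gria4* ran from -0.080 to 0.064, of *Grik1* from -0.15 to 0.062, of *Grin2b* from -0.017 to 0.26 and of *Grin3a* from -0.068 to 0.17. The other 6 kept their direction but moved in size: *Grik5* from -0.20 (without control replicate 1) to -0.011 (without control replicate 2), *Gria1* from -0.095 to -0.015, *Gria2* from 0.052 (without *Qk* cKO replicate 2) to 0.20 (without *Qk* cKO replicate 1), *Gria3* from 0.12 to 0.23, *Grik2* from 0.090 to 0.17 and *Grin1* from 0.0015 to 0.047.

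The count of called member events was 1 in the Cochran-Mantel-Haenszel test (replicate block), with junction tags only, at a coverage of 10 or 50 and with adjustment over all types, but 0 in the interaction test (64 over the whole table) and 0 to 2 with each sample left out. Some events then fell below the coverage minimum and gave no value. The second call without control replicate 1 was the 41-nt and flop exons of *Gria2* together (difference -0.088), and without *Qk* cKO replicate 1 the *Grik5* exon 3 site against the middle site. Over the whole table the calls were 488 to 722 with each sample left out. Inclusion differences that changed sign ran from -0.011 to 0.0098 for *Gria2* exon 15, -0.041 to 0.0058 for flip after flop, -0.0068 to 0.024 for flop against flip, -0.051 to 0.031 for the flop exon, -0.0030 to 0.0205 for the *Grik2* exon, -0.0067 to 0.012 for *Grik5* exon 6, -0.043 to 0.026 for the downstream exon 3 site, 0.015 where the middle site was tested, and -0.023 to 0.12 for *Grin1*. Counted on the leaving junction only, chosen after seeing the data, the flop share was 8.95% in control for *Gria1* (9.33% in *Qk* cKO), 12.4% in control and 11.8% in *Qk* cKO for *Gria2*, and 6.78% and 10.2% for *Gria4*. The cause of these changes was not tested.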
